A study of Mus musculus with 6 samples.

Results

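The medial habenula was followed here as the set of Visium spots that carried its defining transcripts, in coronal mouse brain sections of 3 ages. Spots with at least 500 UMIs (unique molecular identifiers, 1 per probe pair captured) were taken, and members were selected on their own counts, with a summed level of Gpr151, Chrna3 and Gng8 of at least 600 CPM (UMIs per 1000000 UMIs of the spot), at least 2 of these 3 genes detected, and Ttr under 30000 CPM. Because these values chose the members, the levels of the 3 genes and of every other gene in members over other spots are a description and carry no test. The rule found 163 of 20336 spots (0.802%). Spots are 100 µm apart and each can hold several cells, so a member spot is a small region and not a cell, and spots of 1 section are not replicates.

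All sections were FFPE brain of male C57BL/6J mice without treatment, hybridised with 10x Genomics mouse probes. P21 (postnatal day 21, bred in house), adult (12 to 15 weeks, from a commercial breeder) and aged mice (28 months, from the NIA) gave 2 sections each, labelled as biological replicates. P21 and adult sections lay directly on Visium v1 slides and aged sections were transferred by CytAssist to v2 slides with a changed probe design, by the study's methods, so slide version, transfer and probes cannot be told apart from aged against the younger ages, and the source of the mice cannot be told apart from age in any comparison. These sources are those of the labels, while the study's methods name the commercial breeder alone. The study compared P21 and aged brain, each with adult, in large regions and in parts of the hippocampus.

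As background, the medial habenula is a small epithalamic nucleus beside the third ventricle, below the dentate gyrus and next to the choroid plexus. Its neurons project through the fasciculus retroflexus to the interpeduncular nucleus and release glutamate. Those of the ventral part also make acetylcholine and those of the dorsal part substance P, and nicotinic receptors that contain the α3 and β4 subunits, rare elsewhere in brain, make the nucleus known for nicotine aversion and withdrawal.

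Members numbered 37 of 3598 and 33 of 3314 spots in P21 sections 1 and 2, 0 of 2917 and 15 of 3259 in adult sections 1 and 2, and 23 of 3679 and 55 of 3569 in aged sections 1 and 2. Adult section 1 had 381 spots (13.1%) with a UMI of any of the 3 genes, and its highest summed level was 239 CPM, so it entered no comparison of members and the adult is 1 section throughout. The members lay in 1 patch in adult section 2 and in both aged sections. P21 section 1 had a patch of 35 spots and 2 single spots, and P21 section 2 had patches of 19 and 13 spots and 1 single spot. The largest patch spanned 0.854, 0.5, 0.458, 0.557 and 0.819 mm in P21 1, P21 2, adult 2, aged 1 and aged 2, an order in which 5 values are given throughout. Members with members on all sides numbered 9, 5, 1, 7 and 30, so most members lay at the edge of a patch in every section but aged section 2.

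**Figure D1:**
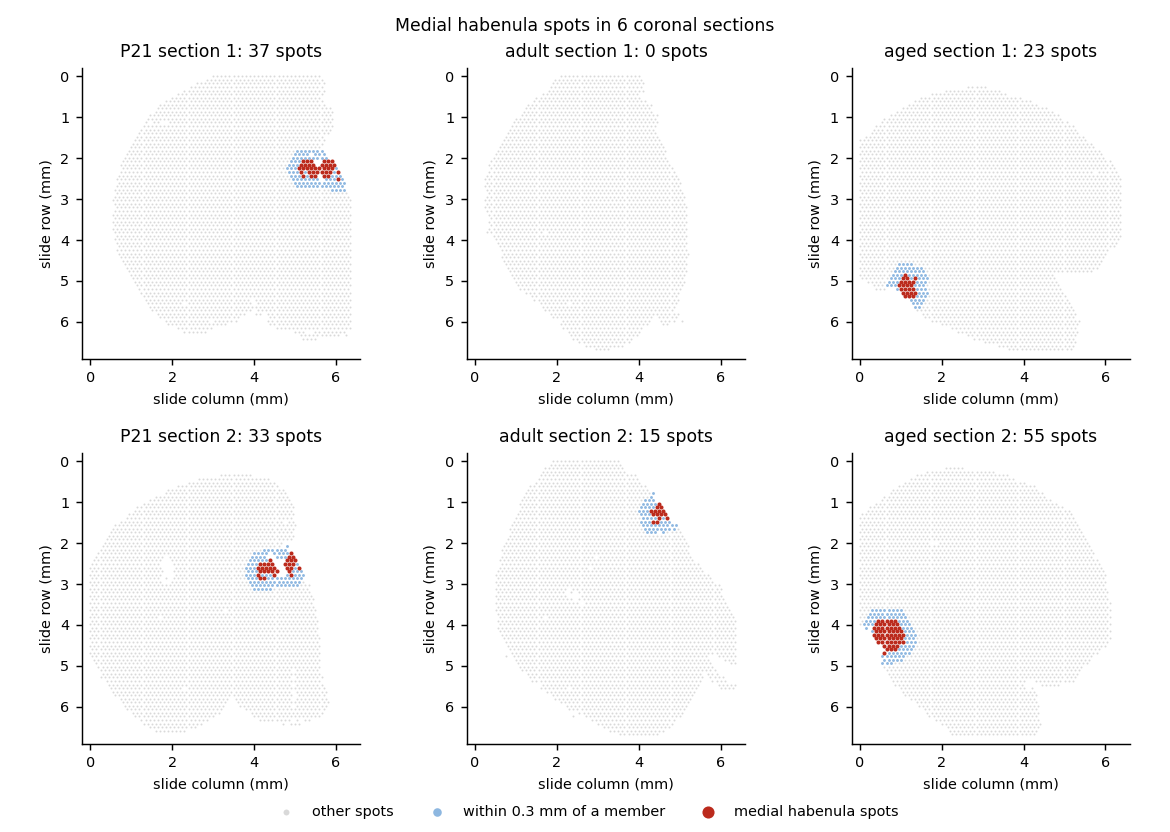
Spots of the 6 sections by slide position in mm (each panel 1 section, grey other spots, blue spots within 0.3 mm of a member, red members). Members form compact patches in 5 sections, with 37, 33, 15, 23 and 55 spots, and adult section 1 has 0.

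Members were deeper than the sections as a whole. Their median UMIs per spot were 46464, 22890, 23715, 22682 and 34840 against 23543.5, 12074.5, 14603, 19580 and 25535 over all spots kept, and their summed UMIs were 1686900, 760959, 384490, 521144 and 2162126. At the threshold, the lowest members had summed levels of 633, 623, 601, 670 and 668 CPM, and the highest other spots with at least 2 of the genes stood below the threshold. A further 5 spots passed the level with only 1 gene detected and were left out, one of them at 1536 CPM, while 0 were left out for Ttr. Another 1485, 786, 645, 416 and 611 spots (41.7%, 24.0%, 19.9%, 11.4% and 17.4% of the other spots) held at least 1 UMI of the 3 genes, so single UMIs of them are not particular to the nucleus.

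The label was set beside markers that the rule did not use, as a description. Of 23 further medial habenula markers compared, 16 were over 2-fold higher in members than in all other spots of the same section in every section and 0 were lower in every section, with a median log2 ratio of 4.03. A marker could enter by its level in members alone, and markers low in both sets dropped out. Of 26 listed markers in the files 23 entered, and Chrna5, described below, did not. Over all 8219 genes at 20 CPM or more in all 5 sections, in members or in other spots, the median was 0.06, with 218 higher (2.65%) and 115 lower (1.4%). Pou4f1, the POU factor that specifies habenular neurons, was at 257, 301, 299, 253 and 327 CPM in members and at 4.4, 5.11, 1.91, 1.2 and 1.19 CPM in other spots. It was detected in at least 92.7% of members of every section and in at most 7.58% of other spots. Set against spots within 0.3 mm of a member alone, 145 genes were over 2-fold higher and 29 lower in every section.

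Neighbouring tissue was present in the members in unequal amounts, as 1 spot covers several cells. Ttr, the most abundant choroid plexus transcript, stood at 5272, 6619, 164, 1969 and 9.71 CPM in members, and the 10 choroid plexus genes in the files summed to 5542, 6882, 211, 2093 and 85.1 CPM. The nearest spot over the Ttr limit was 0.1 mm away in both P21 sections and aged section 1, and 2.49 and 1.91 mm away in adult section 2 and aged section 2. C1ql2, a dentate granule cell marker, was at 13, 34.2, 151, 21.1 and 13.4 CPM, so the adult members stood apart from those of all other sections. Ependyma genes summed to 298, 146, 96.2, 169 and 121 CPM in members and to 72.7, 76.9, 34.8, 36.8 and 38.4 CPM in other spots. Of 5 hippocampal pyramidal layer genes compared, 2 were over 2-fold higher in members in every section and 0 lower. The whole list summed to 743, 853, 671, 700 and 837 CPM in members. In spots within 0.3 mm it summed to 361, 398, 321, 323 and 244 CPM, so it is not read here as a measure of neighbouring tissue. Of 10 dorsal thalamus markers, 2 of 9 compared were over 2-fold lower in members in every section and 0 higher. Lateral habenula markers ran lower in members, with a median log2 ratio of −0.85 and with 1 higher and 3 lower of 10.

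The 20 genes with the highest ratio, the 3 rule genes left out, came from several families. Beside Pou4f1 they held the Iroquois factors Irx1 and Irx2, the nicotinic subunits Chrnb3 and Chrnb4, the cholinergic genes Chat, Slc18a3 and Slc5a7, the neurokinin B precursor Tac2, the serotonin receptor Htr5b, the orphan receptor Gpr139, the potassium channel auxiliary subunit Lrrc55, the calcium-activated chloride channel Ano1 and the cadherin Cdh3. The others were Gm5741, Nppa, Tyrp1, Syt15, Wfikkn2 and Nwd2. Gm5741 had the highest ratio, with 747, 721, 247, 627 and 664 CPM in members and 10.6, 9.39, 1.53, 1.72 and 1.24 CPM in other spots. Its adult value was the lowest of the 5.

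**Figure D2:**
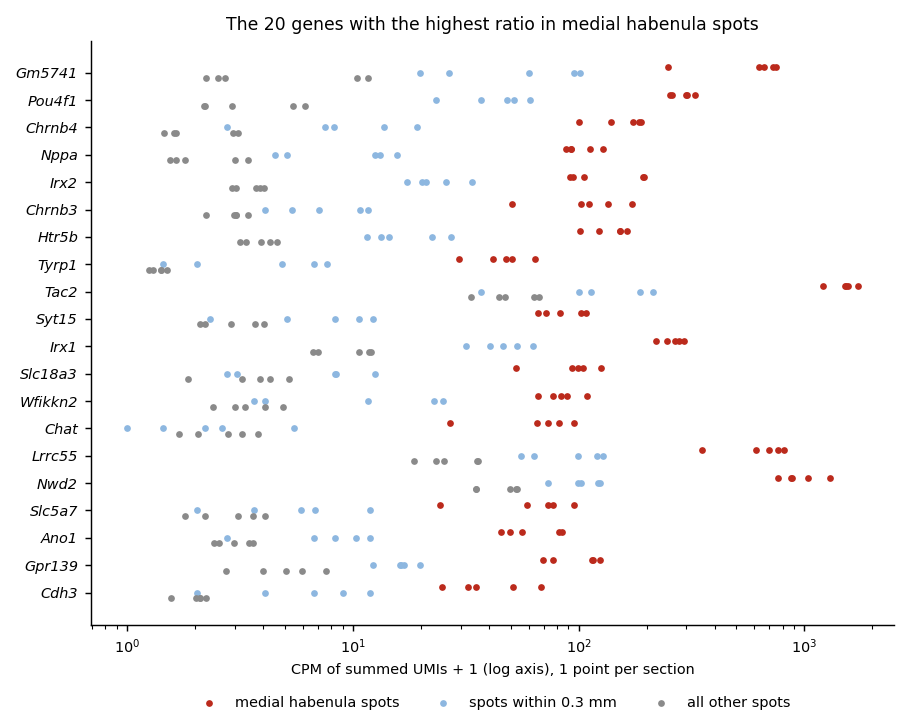
Levels of the 20 genes with the highest ratio of members over other spots, in CPM plus 1 on a log axis, 1 point per section for members (red), spots within 0.3 mm (blue) and all other spots (grey). For every gene the 5 members' points lie to the right of both other sets, and the blue points lie between in most genes, Chat being an exception.

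Promoters of these genes are shown because the genes share an expression pattern that can be set beside their sequence. Of the 20 genes, 15 matched a promoter in the RefSeq table of GRCm38.p6. In the 250 bases before the start, the E-box letters CAGCTG, read on both strands, were found in 7 of 15 (46.7%) against 13% of 32851 promoters. CAGCAG was found in 7 of 15 (46.7%) against 25.4%, and CAGCAGG, which contains it, in 1 of 15 (6.67%) against 8.44%. The homeodomain letters TAATTA and ATTAAT were found in 0 of 15, against 4.84% and 4.39%. These 5 motifs are letters in a window and show no binding. The promoters of 4 genes with CAGCTG follow, each 5′ to 3′ on the strand of its gene, with CAGCTG in capitals, namely Pou4f1 (chr14:104468000-104468249, minus strand), Tac2 (chr10:127724228-127724477, plus strand), Chrnb4 (chr9:55048545-55048794, minus strand) and Chat (chr14:32465910-32466159, minus strand).
Pou4f1: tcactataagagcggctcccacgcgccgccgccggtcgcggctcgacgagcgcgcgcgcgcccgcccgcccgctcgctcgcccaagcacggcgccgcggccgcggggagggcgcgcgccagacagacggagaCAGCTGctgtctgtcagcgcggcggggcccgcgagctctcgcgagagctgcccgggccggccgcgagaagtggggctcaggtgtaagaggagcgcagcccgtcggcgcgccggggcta
Tac2: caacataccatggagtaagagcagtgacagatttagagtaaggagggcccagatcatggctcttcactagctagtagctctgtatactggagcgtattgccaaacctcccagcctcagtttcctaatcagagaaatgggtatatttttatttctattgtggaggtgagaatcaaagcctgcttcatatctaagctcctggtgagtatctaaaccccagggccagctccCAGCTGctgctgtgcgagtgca
Chrnb4: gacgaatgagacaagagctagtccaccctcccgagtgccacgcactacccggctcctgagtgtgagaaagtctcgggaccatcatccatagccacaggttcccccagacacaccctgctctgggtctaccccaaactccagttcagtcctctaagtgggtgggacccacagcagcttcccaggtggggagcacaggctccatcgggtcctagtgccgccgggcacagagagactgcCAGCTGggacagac
Chat: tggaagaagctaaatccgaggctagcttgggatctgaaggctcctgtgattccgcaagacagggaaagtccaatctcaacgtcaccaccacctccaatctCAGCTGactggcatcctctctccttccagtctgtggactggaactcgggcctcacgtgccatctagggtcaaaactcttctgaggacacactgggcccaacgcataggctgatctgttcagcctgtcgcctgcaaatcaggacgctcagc
The capitals began 118, 22, 14 and 150 bases before the RefSeq start of Pou4f1, Tac2, Chrnb4 and Chat. In the gene coordinates used here Chrnb4 and Chat start further upstream, at 55048779 and 32465989 on the minus strand. By these coordinates part of both stretches, with the CAGCTG of Chrnb4, lies inside the gene.

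Receptor subunits came first among the roles. Levels are given as CPM within a gene and are not compared between genes, as each gene has its own probes. Chrnb4, the β4 subunit, was at 139, 172, 98.8, 188 and 184 CPM in members and at 2.09, 1.94, 0.61, 0.45 and 0.65 CPM in other spots, and Chrnb3 was at 101, 110, 49.4, 171 and 134 CPM in members. The adult section was lowest for both. The widely expressed subunits behaved otherwise: Chrnb2 was at 136, 137, 122, 142 and 122 CPM (log2 ratio over other spots 0.69 ± 0.03, SD over 5 sections) and Chrna4 had a ratio of −0.03 ± 0.30. Of the 15 subunit genes in the list, 5 were abundant enough for comparison, 2 of them higher, and 3 had no UMI in any member. Chrna5, which is clustered with Chrna3 and Chrnb4 in the genome, was at only 1.31 to 3.70 CPM in members and was not higher than in other spots.

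The genes that make and recycle acetylcholine were high in members of every section. Chat, the synthetic enzyme, was at 64.6, 72.3, 26.0, 80.6 and 94.4 CPM in members against 2.82, 1.80, 0.69, 1.06 and 2.24 CPM in other spots. The vesicular transporter Slc18a3, which lies within the Chat locus, had 98.4, 92.0, 52.0, 125 and 104 CPM. For the choline transporter Slc5a7 the values were 72.3, 57.8, 23.4, 94.0 and 75.9 CPM. In all 3 the adult section was lowest. Of the 4 cholinergic genes compared, these 3 were over 2-fold higher in every section, while the degrading enzyme Ache had a log2 ratio of 0.55 ± 0.36. Chat was detected in 70.3%, 69.7%, 26.7%, 60.9% and 43.6% of members and in 4.91%, 1.86%, 0.92%, 1.94% and 4.10% of other spots.

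Peptides and glutamate transporters were compared next. Tac2 was at 1509, 1534, 1558, 1723 and 1202 CPM in members and at 65.6, 62.5, 43.5, 46.0 and 32.3 CPM in other spots. Tac1, the substance P precursor, was at 69.4, 93.3, 146, 167 and 111 CPM and was not among the genes higher in every section. Slc17a6 and Slc17a7, the vesicular glutamate transporters, were both present, Slc17a7 at 1576, 1566, 1423, 1197 and 938 CPM with a log2 ratio over other spots, which include cortex and hippocampus, of −0.46 ± 0.23. Of 12 transcription factors of the habenula compared, 8 were higher in every section and 1, Mef2c, was lower, where 2.65% of all genes were higher and 1.4% lower. Of 9 G protein coupled receptors compared, 4 were higher and 1, the adenosine receptor Adora1, was lower (median log2 ratio 0.74), the higher ones including the μ-opioid receptor Oprm1, at 217, 281, 489, 382 and 280 CPM, and Gpr139. Of 9 GABA-B receptor and auxiliary genes compared, 3 were higher and 1, Kctd16, was lower (median −0.20), and the abundant receptor subunit gene Gabbr1 was at 1730, 1812, 2013, 1842 and 2099 CPM.

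**Figure D3:**
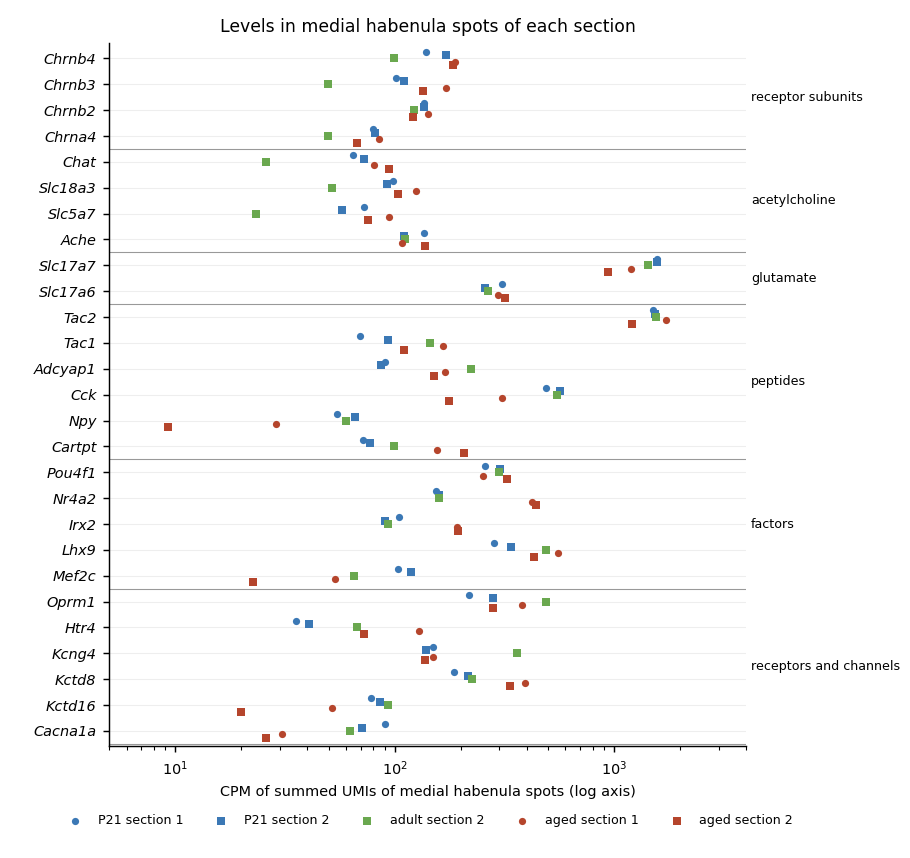
Level of 27 genes in the members of each section, in CPM on a log axis, by role (colour is age, marker is section). Chat, Slc5a7 and Chrnb3 are lowest in the adult section, Nr4a2, Irx2 and Cartpt are highest in both aged sections, and Npy, Mef2c, Kctd16 and Cacna1a are lowest there.

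Within the patch the cholinergic genes were off centre. For each gene the level-weighted centre of the largest patch was set against the patch centre along the line to the dentate gyrus, as found from the 30 spots of each section highest in dentate markers. Negative shifts point away from the dentate gyrus. The shift was −98.4 ± 38.4 µm for Slc18a3 (SD, n = 5 sections), −73.5 ± 34.3 µm for Chat, −71.4 ± 27.5 µm for Chrnb4 and −68.1 ± 47.7 µm for Slc5a7, each away from it in 5 of 5 sections. Tac2 and Nwd2 had −33.3 ± 13.7 and −32.5 ± 10.8 µm, also in 5 of 5. Tac1 lay on the other side, 34.0 ± 42.8 µm toward the dentate gyrus, in 4 of 5 sections, the adult section being the exception at −23.2 µm. Pou4f1 and Calb2 were central, with shifts of −7.43 ± 10.1 and −2.59 ± 10.7 µm. These means were below the 100 µm between spots, while in aged section 2 the shifts reached −146 µm for Slc18a3, −114 µm for Chat, −108 µm for Chrnb4 and −149 µm for Slc5a7. No test was made of them, since spots share their section. Some centres rested on few UMIs. In adult section 2 they were 20 for Slc18a3, 10 for Chat, 38 for Chrnb4 and 9 for Slc5a7. In the 19 spots of the largest patch of P21 section 2 they were 38, 41, 67 and 24.

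**Figure D4:**
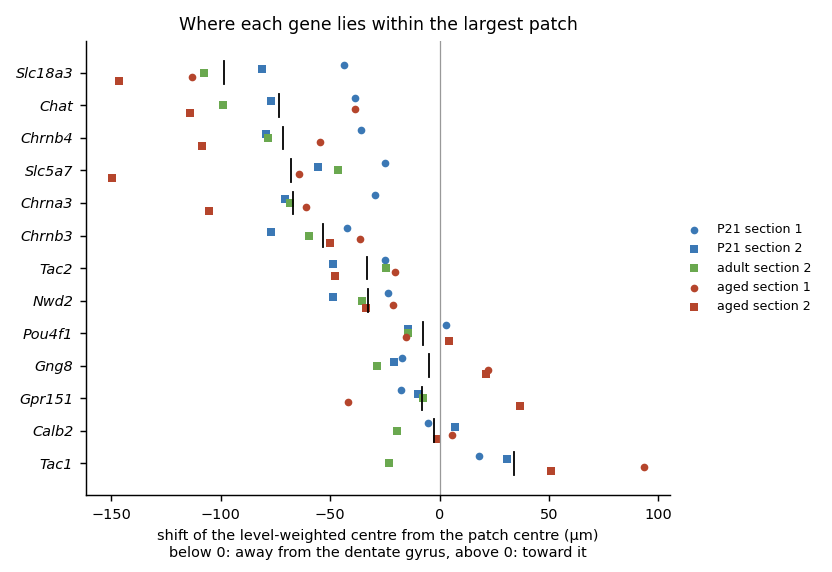
Shift of each gene's level-weighted centre from the centre of the largest patch, in µm along the line to the dentate gyrus, 1 point per section and a bar for the mean. Slc18a3, Chat, Chrnb4 and Slc5a7 lie below 0 in all 5 sections, and Tac1 lies above 0 in 4.

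Across the spots of every section, Slc18a3 varied more closely with Chrnb4 than with Tac1. Slc18a3 and Chrnb4 had Spearman's rho of 0.80, 0.73, 0.81, 0.59 and 0.77 over 37, 33, 15, 23 and 55 members. Slc18a3 and Tac1 had −0.13, −0.06, 0.37, −0.38 and 0.27. Tac1 and Chat had −0.19, −0.21, 0.15, −0.01 and 0.34. Tac1 and Tac2 had 0.47, 0.49, 0.86, 0.44 and 0.55. These are descriptions, as all spots of a section share its library and differ in depth and in how much of the nucleus they cover. Between members surrounded by members and members at the edge, the thalamic kinase gene Prkcd was lower inside in both P21 and both aged sections, with log2 ratios of −0.35, −0.45, −3.04 and −1.04, and level at 0.01 in the adult section, where the inside was 1 spot. The rule genes are not compared in this way, since edge spots adjoin spots that failed their threshold.

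Ages were compared on UMIs summed over the members of each section, with edgeR's quasi-likelihood test and Benjamini-Hochberg adjustment over all genes tested, and calls needed both an adjusted p below 0.05 and a change of more than 1.5-fold. The rule genes and Ttr were left out. In summed spots, fewer cells of a type and less RNA per cell cannot be told apart. With 1 adult section, both comparisons with the adult assume that it varies as the P21 and aged sections do, and all 3 comparisons share 1 fit. The numbers called were 54 of 10839 genes in P21 vs. adult, with 38 higher (0.351%) and 16 lower (0.148%), 274 of 10849 in aged vs. adult, with 99 higher (0.913%) and 175 lower (1.61%), and 1467 of 10858 in aged vs. P21, with 644 higher (5.93%) and 823 lower (7.58%). Aged vs. P21 was added after it was seen that adult section 1 held no member. These counts rested on single sections. Without P21 section 1 the 3 counts were 11, 96 and 309, without P21 section 2 they were 28, 157 and 721, and without aged section 1 and aged section 2 the comparisons with adult rose to 245 and 256 in P21 vs. adult and to 699 and 579 in aged vs. adult. The excess of lower calls in aged vs. adult also rested on 1 section, with 323 higher and 256 lower without aged section 2, and with every gene with 1 UMI kept the split was 205 and 204. Without TMM scaling, the aged vs. P21 split was 826 higher and 692 lower, and with DESeq2 it was 95 and 202.

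None of the 5 nicotinic subunits tested and none of the 4 cholinergic genes was called in aged vs. P21, against 5.93% of all genes called higher and 7.58% lower. At an unadjusted p under 0.05 there was 1 of the 5 and 1 of the 4. Against the rest of the section, by the member-by-age term described below, there was 1 of the 5 and 4 of the 4. The median terms were 0.14 and 0.77, with 1 nicotinic and 0 cholinergic genes called higher. The differences in members were 0.23 for Chrnb4 (adjusted p = 0.340), 0.43 for Chrnb3 (0.0862), 0.37 for Chat (0.162), 0.14 for Slc18a3 (0.610) and 0.22 for Slc5a7 (0.452), all on the log2 scale. Pou4f1 differed by 0.05 (SE 0.15, adjusted p = 0.848) and Tac2 by −0.12 (SE 0.135, adjusted p = 0.576). Both aged sections lay above both P21 sections for Chrnb4, Chrnb3, Chat, Slc18a3 and Slc5a7, while the ages overlapped for Pou4f1 and Tac2. Over all genes tested, 6302 of 10858 did not overlap between these ages, so separation of this kind was common. Calb2, the calretinin gene, was at 1008 and 1033 CPM at P21 and at 1178 and 1096 in aged members, a difference of 0.10 that was not called. A difference that misses the threshold in 2 against 2 sections does not show equal levels, and Chrnb3 was called with only members in which all 3 rule genes were detected, at 0.59 (edgeR, adjusted p = 0.0157), and without aged section 2, at 0.67 (adjusted p = 0.00717).

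Of 13 transcription factors of the habenula tested, 4 were higher and 1 was lower in aged vs. P21, where 5.93% of all genes were higher and 7.58% lower. Their median log2 difference was 0.15, against 0.02 over all genes tested. Nr4a2 (chromosome 2, 57106830 to 57124003, GRCm38), a nuclear receptor expressed in medial habenula neurons, was at 155 and 159 CPM at P21, 159 in the adult and 424 and 443 in aged members. Both aged sections lay far above the 3 younger ones, with log2 fold changes of 1.42 in aged vs. P21 (SE 0.14, edgeR adjusted p = 7.89e-07) and 1.46 in aged vs. adult (SE 0.21, adjusted p = 0.000523). Nr4a2 was also higher in other spots of the aged sections than of P21, and its member-by-age term, given below, was not called. P21 and aged members did not overlap for 6302 of 10858 genes tested. Irx2 had 105, 90.7, 93.6, 192 and 194 CPM and again stood higher in both aged sections, by 0.90 over P21 (adjusted p = 0.000493). With sums thinned to the lowest it was not called (0.66, adjusted p = 0.0739), nor in aged vs. adult without P21 section 1 (adjusted p = 0.106) or P21 section 2 (0.0881). Lhx9 and Tcf7l2 rose by 0.60 and 0.79 over P21, but Lhx9 was not called without P21 section 1, P21 section 2 or aged section 1 (log2 fold changes of 0.47, 0.73 and 0.43), nor Tcf7l2 without P21 section 2 or aged section 2 (0.61 and 0.41). Mef2c, a MADS-box factor, was at 104, 118, 65.0, 53.7 and 22.7 CPM and fell by 1.92 on the log2 scale (adjusted p = 3.36e-05).

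Of 11 genes of the peptide list tested, 3 were higher and 3 lower in aged vs. P21, against 5.93% and 7.58% of all genes, with a median log2 difference of −0.12. Cartpt, the CART precursor, was at 71.7 and 77.5 CPM at P21, 98.8 in the adult and 155 and 206 in aged members, a rise of 1.29 over P21 (SE 0.17, adjusted p = 3.76e-05). Adcyap1, the PACAP precursor, was at 90.1 and 86.7 CPM at P21, 224 in the adult and 169 and 151 in aged members, higher in aged than P21 by 0.77 (adjusted p = 0.00270) and lower in P21 than adult by 1.28. The P21 difference from the adult was not called without P21 section 1 or P21 section 2 (adjusted p = 0.222 and 0.0781). P21 and aged sections did not overlap for either gene, which was also so for 6302 of 10858 genes tested. Tac1 rose by 0.66 (adjusted p = 0.0300) and was not called without P21 section 1, P21 section 2 or aged section 1, at 0.43, 0.87 and 0.44. Cck was at 491 and 566 CPM at P21, 551 in the adult and 309 and 177 in aged members, and fell by 1.27 (adjusted p = 0.000101). Npy had 54.5, 65.7, 59.8, 28.8 and 9.25 CPM and fell by 2.15 (adjusted p = 0.000208). Cck and Npy are also peptides of cortical and hippocampal neurons, and both were lower in members than in other spots in every section.

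Among receptors and channels, 4 of 9 G protein coupled receptors were higher in aged vs. P21 and 0 lower (median log2 difference 0.49), and 5 of 15 pacemaker and calcium channel genes were lower and 0 higher (median −0.20), against 5.93% of all genes higher and 7.58% lower. The receptors were Htr4, Htr2c, Gpr139 and Oprl1. Gpr139 was at 68.8, 76.2, 114, 113 and 123 CPM, a rise of 0.69 (adjusted p = 0.00705). Its aged sections lay above both P21 sections, where 6302 of 10858 genes tested had no overlap between these ages. None of the 4 was called without P21 section 1 (adjusted p between 0.121 and 0.345), and Htr2c stood at 42.2 CPM in aged section 1 and 245 in aged section 2, so its aged sections lay on either side of P21. Without aged section 2 the Htr2c difference turned to −0.93. Cacna1a, the P/Q-type pore subunit, was at 90.1, 71.0, 62.4, 30.7 and 25.9 CPM and fell by 1.66 (adjusted p = 3.64e-05). Cacna2d1 and Cacna2d3, auxiliary α2δ subunits, fell by 1.48 and 2.11, where Cacna2d3 was not called without P21 section 1 (adjusted p = 0.0829). The GABA-B auxiliary genes parted: Kctd8 was at 187, 216, 226, 393 and 336 CPM and rose by 0.80 (adjusted p = 0.000812; without P21 section 1, 0.129), while Kctd16 had 77.7, 85.4, 93.6, 51.8 and 19.9 CPM and fell by 1.60 (adjusted p = 0.000564; without aged section 2, 0.103). DESeq2 did not call Tac1, Cck, Lhx9, Tcf7l2, Gpr139, Htr2c, Oprl1, Cacna2d3 or Kctd16 in aged vs. P21, with adjusted p between 0.0765 and 0.888.

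For some genes named here the adult section stood apart from both other ages. Chat was higher in aged than adult by 1.79 (SE 0.38, edgeR adjusted p = 0.0141), Slc5a7 by 1.79 (adjusted p = 0.0259) and Chrnb3 by 1.57 (adjusted p = 0.0104). In P21 vs. adult the same genes differed by 1.43, 1.57 and 1.14 and were not called, although Chat and Slc5a7 were called without either aged section (adjusted p of 0.0272 without aged section 1 and 0.0244 without aged section 2 for Chat, 0.0134 and 0.0114 for Slc5a7). Slc5a7 was not called in aged vs. adult without P21 section 1 (adjusted p = 0.0559). With sums thinned to the lowest, which is that of the adult section, the aged vs. adult differences of Chat and Slc5a7 were not called (edgeR, adjusted p = 0.0597 and 0.0532), and DESeq2 called none of Chat, Slc5a7 and Chrnb3 (adjusted p = 0.213, 0.216 and 0.0691). The adult members were the fewest, 15 spots, and had the highest C1ql2, so how much of the cholinergic part they covered was not tested. Lrrc55 was also lowest in the adult section, at 699, 815, 351, 610 and 760 CPM, while P21 and aged sections overlapped. It was higher in P21 than adult by 1.16 (adjusted p = 0.00359) and in aged than adult by 0.98 (adjusted p = 0.00712). Without P21 section 1 neither was called (adjusted p = 0.0898 and 0.0602), nor the P21 difference without P21 section 2 (0.108). Kcng4, a modifier subunit of voltage-gated potassium channels, ran the other way, at 150, 139, 362, 150 and 137 CPM. It was lower in P21 than adult by 1.26 on the log2 scale (adjusted p = 0.00170) and in aged than adult by 1.35 (adjusted p = 0.000523), and the P21 difference was not called without P21 section 1 or P21 section 2 (adjusted p = 0.127 and 0.0577).

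Glial and immune genes differed between the ages in members, and in aged vs. P21 no gene of the oligodendrocyte, reactive astrocyte, complement, MHC class I and interferon lists was called against the rest of the section, a test that called 1.31% of all genes higher and 3.55% lower, so that 0 calls among so few genes is near this background. All 10 mature oligodendrocyte genes were tested. In P21 vs. adult 8 were higher, against 0.351% of all genes, and in aged vs. P21 9 were lower (median log2 difference −2.02), against 7.58%, with 0 called against the other spots in aged vs. P21 and 2 at an unadjusted p under 0.05. C4b, a complement component, was at 11.9, 11.8, 18.2, 157 and 136 CPM, a rise of 3.53 in aged vs. P21 (adjusted p = 3.13e-09). The reactive astrocyte genes Gfap and Serpina3n rose by 1.38 and 2.95, the antigen presentation genes B2m and H2-K1 by 1.18 and 2.22 and the alarmin Il33 by 3.12. Il33 was also called lower in P21 than adult, where DESeq2 gave −3.67 without an adjusted p. Its 3.12 is thus set against a low P21 level and is not a rise over the adult. In aged vs. P21, 4 of 5 complement, 6 of 9 MHC class I and 6 of 7 interferon-induced genes tested were higher and 0 lower, against 5.93% and 7.58% of all genes, with median log2 differences of 0.84, 1.17 and 1.64. Of these genes 0 were called against the other spots, beside 1.31% of all genes higher and 3.55% lower, and the difference of H2-K1 was not called with sums thinned to the lowest (2.04, adjusted p = 0.0984). In aged vs. adult Gfap was called against the other spots (0.96), but not against spots within 0.3 mm (−0.06). At an unadjusted p under 0.05 that term counted 1 complement and 2 MHC class I genes but 6 of the 7 interferon-induced genes, whose median term was 1.26, so for the last list a larger rise in members is not shown to be absent. Cntnap2 was at 66.4, 59.1, 65.0, 0 and 2.31 CPM in members and at 26.7, 34.2, 23.9, 0.64 and 0.41 CPM in other spots, so its low level in the aged files was shared by the whole section, where age cannot be told apart from probe design.

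Whether a change in members went beyond that in the rest of the section was asked with the member-by-age term. The term came from a fit over member and other-spot sums in which sections were blocks. For each gene it drops a factor that scales members and other spots of a section alike. It keeps one that acts unequally on them, such as spread of signal between spots, which may differ between slide versions and was not tested. It called 22 genes in P21 vs. adult, with 7 higher (0.0646%) and 15 lower (0.138%), 93 in aged vs. adult, with 15 higher (0.138%) and 78 lower (0.719%), and 528 in aged vs. P21, with 142 higher (1.31%) and 386 lower (3.55%). Without P21 section 1 and P21 section 2 the aged vs. P21 count was 232 and 342, and without aged section 1 it was 855. Without aged section 1 and aged section 2 the P21 vs. adult count was 101 and 107, without P21 section 2 it was 13, and without aged section 1 the aged vs. adult count was 323. Of the 1467 genes called by age in aged vs. P21, 299 were called here too, with 37 higher and 255 lower in both tests. With members surrounded by members alone, 195 were called, 155 of them shared, and with spots within 0.3 mm in place of all other spots, 535, of which 270 were shared.

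Genes called higher by this term in aged vs. P21 were mostly higher in members than in other spots, and those called lower mostly lower, in the adult section, which does not enter that difference but shares its estimate of the spread. In it the 142 genes called higher had a median log2 ratio of members over other spots of 1.22, with 8.45% below 0, and the 386 called lower had a median of −0.90, with 91.5% below 0. Over all genes tested the median was 0.08 and 43.7% were below 0. Of 24 medial habenula markers tested, 9 were called higher and 0 lower, while 6 of 10 dorsal thalamus and 4 of 6 choroid plexus genes were called lower and 0 higher, against 1.31% of all genes called higher and 3.55% lower. The median terms of the 3 lists were 0.61, −1.31 and −2.22.

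**Figure D5:**
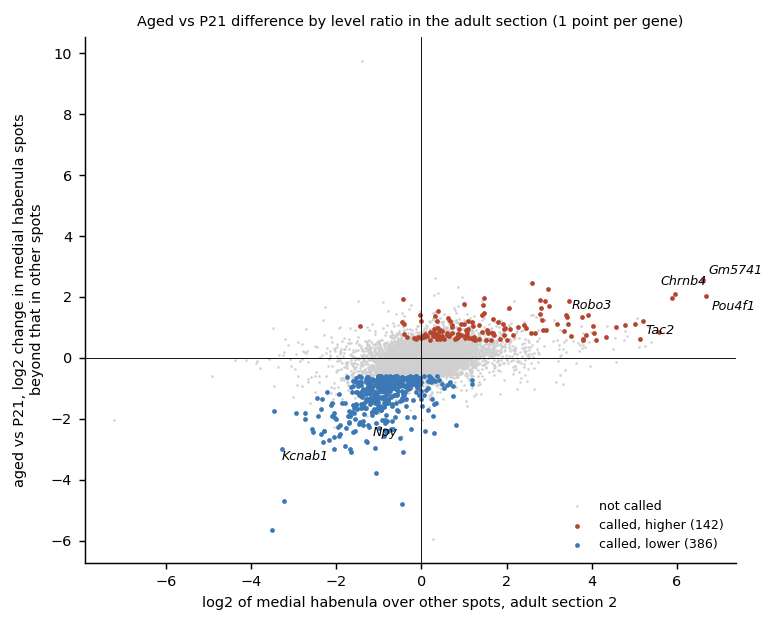
Aged vs. P21 log2 change in members beyond that in other spots (vertical) against the log2 ratio of members over other spots in adult section 2 (horizontal), 1 point per gene, with the 142 called higher in red and the 386 called lower in blue. Red points lie mostly right of 0, with a median of 1.22, and blue points mostly left of it, with a median of −0.90.

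For some of these genes the term came from the other spots. Pou4f1 differed by 2.04 in the member-by-age term of aged vs. P21 (SE 0.17, edgeR adjusted p = 3.77e-06), with 257 and 301 against 253 and 327 CPM in members but 4.4 and 5.11 against 1.2 and 1.19 CPM in other spots. Chrnb4 and Gm5741 had terms of 2.09 and 2.57 of the same kind, with other spots at 2.09 and 1.94 against 0.45 and 0.65 CPM for Chrnb4 and at 10.6 and 9.39 against 1.72 and 1.24 CPM for Gm5741. UMIs of these 3 genes outside the members were thus more frequent in the P21 sections, and against spots within 0.3 mm alone the terms of Pou4f1 and Gm5741 were 1.04 and 1.35. For Chrnb4 the spots within 0.3 mm stood at 12.8 and 18.2 CPM at P21 and at 6.55 and 1.76 CPM in aged sections. The hedgehog-binding gene Hhip and the kinase gene Prkcq had terms of 1.69 and 1.35, again with differences in members that were not called in aged vs. P21.

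For others the summed level in members differed between these ages. Surrounded members numbered 9 and 5 in P21 sections 1 and 2 and 7 and 30 in aged sections 1 and 2. How far the share of neighbouring tissue in member spots entered these differences was not tested. Kcnab1, a potassium channel β subunit, was at 83.0, 74.9, 67.6, 11.5 and 10.6 CPM in members and at 174, 163, 219, 172 and 181 CPM in other spots, a term of −3.01 in aged vs. P21 (SE 0.23, adjusted p = 1.98e-06). Npy fell in members while other spots stood at 232 and 206 CPM at P21 and 343 and 332 in aged sections (term −2.76). Mef2c, Cacna1a and Kctd16 had terms of −1.90, −1.36 and −1.79 while other spots went from 332 and 339 to 344 and 330 CPM for Mef2c, from 202 and 197 to 146 and 169 CPM for Cacna1a and from 191 and 204 to 205 and 230.5 CPM for Kctd16, though Kctd16 and Cacna1a were not called without aged section 2 (adjusted p = 0.137 and 0.0657). Cck had a term of −1.02, which was −0.58 without aged section 2 and −0.04 against spots within 0.3 mm. The thalamic genes Prkcd and Ramp3 had terms of −2.40 and −2.49, and Prkcd was at 171, 108, 83.2, 32.6 and 25.0 CPM in members. With surrounded members alone the log2 differences of Prkcd and Npy were −2.90 and −3.52 in aged vs. P21, larger than over all members, while the term of Cacna1a was −1.32 and not called (adjusted p = 0.0566). By age, Tac1, Irx2, Gpr139, Htr4 and Oprl1 were not called in surrounded members (log2 differences of 0.66, 0.75, 0.59, 0.96 and 0.57, adjusted p between 0.0694 and 0.319), nor was the term of Irx2 (0.96, adjusted p = 0.226).

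Cartpt, Lhx9 and Irx2 were called higher both by age and by this term (0.97, 0.70 and 1.13). Robo3, an axon guidance receptor, had a term of 1.42 in aged vs. P21 without a called difference in members between these ages, at 264, 266, 166, 370 and 328 CPM in members and 31.5, 26.7, 14.9, 12.2 and 15.0 CPM in other spots. In aged vs. adult Robo3 was called in members, at 1.05 (edgeR, adjusted p = 0.00967), but not without P21 section 1 (0.0630) or by DESeq2 (0.0533). Without P21 section 1, Cartpt, Lhx9 and Irx2 were not called (adjusted p = 0.0665, 0.0774 and 0.0774). Nr4a2 differed by −0.29 (adjusted p = 0.321), with other spots at 24.8 and 19.2 CPM at P21 and 77.1 and 72.0 CPM in aged sections, and against spots within 0.3 mm its term was 0.85 (adjusted p = 0.0109). Egr1 and Arc, immediate early genes, stood at 703 and 663 and at 360 and 300 CPM in other spots of the aged sections, but at 80.6 and 32.4 and at 117 and 42.1 CPM in their members, and their terms were −2.38 and −2.33. Arc was at 43.9 and 52.6 CPM in P21 members. The immediate early list summed to 128 and 137 CPM in P21 members and to 296 and 156 CPM in aged members. In other spots it went from 215 and 217 to 1411 and 1301 CPM, so the list rose mostly outside the members.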

How the data were processed

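UMI counts per gene and spot of 6 FFPE Visium sections were used as deposited. The authors made these counts with Space Ranger on mm10 (2.0.0 for P21 and adult and 3.1.1 for aged sections in the file headers, 2.1.0 in the submitters' processing notes) and list Seurat 5.1.0. The files held 19465 genes, and spatial enrichment tables were not used. Members, gene lists and tests were chosen with earlier results of these data known. Members' counts were summed per section and tested with edgeR 4.0.16 (R 4.3.3, TMM, quasi-likelihood), with age as the only term, on genes kept by filterByExpr and detected in over 10% of members of either age compared. The member-by-age term came from a fit with a section block over member and other-spot sums. Sections are labelled biological replicates. The residual degrees of freedom of the age fit were 2.

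Alternatives were no TMM, DESeq2 1.42.0, glmTreat, other filters and member rules, thinning to the lowest sum, a replicate block and leaving out each section. Surrounded members, spots within 0.3 mm and aged vs. P21 were added after seeing the data. The fits were also run on simulated counts, and no outcome of those runs is given here. Ratios of members over other spots are log2 of CPM plus 1. Named genes were those of the nicotinic, cholinergic and medial habenula lists, the 10 largest called rises and falls per comparison without overlap between ages and at 20 CPM or more, the 5 smallest member-by-age p-values, the 20 highest ratios and leading genes of each list. Gene names were taken as the files give them. Python 3.11.15 with numpy, pandas and matplotlib was used for the descriptions. Depth differed between sections by the summed UMIs given in the text, which limits low genes most in the adult section. Some items are not reported here.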

Additional observations from a re-analysis of the deposited data

Results flagged for a closer look

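The change in members differed from that in other spots of the same sections (the member-by-age term of the edgeR fit, log2) for 22 genes in P21 vs. adult, 93 in aged vs. adult and 528 in aged vs. P21. Values of genes named here follow, with no explanation tested.

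In P21 vs. adult the term was below 0 for the μ-opioid receptor Oprm1 (−1.47), Calb2 (−1.71), Baiap3 (−1.73), Kcng4 (−1.55), Adcyap1 (−1.88) and Pou4f1 (−1.38), and above 0 for the synaptic vesicle gene Synpr (1.33) and Rapgef4 (1.29). In aged vs. adult it was above 0 for Synpr (1.48), Lrrc55 (1.24), Nwd2 (1.03) and Gfap (0.96). It was below 0 for Chn1 (−1.47), Ptk2b (−2.68), Ak5 (−2.77) and Hpca (−2.37), which are also expressed in hippocampal and cortical neurons, and for Kcng4 (−1.21), Npy (−3.34) and Cck (−1.01). Dentate gyrus genes summed to 486 CPM in the adult members and to 201 and 240 CPM in aged members. Of 5 tested, 1 was called lower by this term in aged vs. adult (median −1.94), beside 0.719% of all genes. The adult is 1 section in both comparisons. In P21 vs. adult, Pou4f1 was not called without P21 section 1 or P21 section 2 (adjusted p = 0.0671 and 0.0506) and Adcyap1 was not called with touching members alone (0.0591). Against spots within 0.3 mm, the terms of Pou4f1, Adcyap1 and Rapgef4 in P21 vs. adult were −0.16, −1.10 and 0.66, and those of Kcng4, Nwd2, Cck and Gfap in aged vs. adult were −0.24, 0.72, −0.39 and −0.06, none of them called. In aged vs. adult the Cck term was not called without aged section 2 (−0.57), without TMM (adjusted p = 0.0533), at a level of 400 CPM (0.101) or 1000 CPM (0.126) or with touching members alone (0.0867). Nor was that of Gfap called at 400 CPM or with touching members (terms of 0.87 and 0.94), or that of Kcng4 at 1000 CPM (adjusted p = 0.0793).

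In aged vs. P21 it was above 0 for Pou4f1 (2.04), Chrnb4 (2.09), Gm5741 (2.57), Hhip (1.69), Prkcq (1.35), Nwd2 (1.05), Calb2 (1.35), Tac2 (0.61), Oprm1 (0.89), Irx2 (1.13), Lhx9 (0.70), Cartpt (0.97) and Robo3 (1.42). It was below 0 for Kcnab1 (−3.01), Cck (−1.02), Npy (−2.76), Kctd16 (−1.79), Mef2c (−1.90), Cacna1a (−1.36), the thalamic genes Prkcd (−2.40) and Ramp3 (−2.49) and the choroid plexus folate receptor Folr1 (−2.39). The term of Tac2 was not called without P21 section 1, without aged section 1 or with touching members alone (0.59, 0.58 and 0.56), and at 1000 CPM those of Folr1 and Lhx9 were not called (−1.64 and 0.54). Against spots within 0.3 mm the terms of Oprm1, Irx2, Lhx9 and Robo3 were 0.47, 0.59, 0.37 and 0.59 and were not called.

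Adult section 1, which held no member and entered no comparison, had 381 spots with at least 1 UMI of Gpr151, Chrna3 or Gng8.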

How the results depend on the processing

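Of the alternatives for single genes, 1984 values kept their direction and side of the threshold, 193 lost the call, 25 gained one and 4 reversed. Counts of called genes stayed within 1.5 times in 60 settings and moved in 36. By age, DESeq2 called 25 genes in P21 vs. adult, 68 in aged vs. adult and 297 in aged vs. P21, and glmTreat, which tests against the fold itself, 18, 50 and 304. Keeping every gene with 1 UMI gave 111 in P21 vs. adult, thinning to the lowest sum 664 in aged vs. P21, and surrounded members alone 399, of which 371 were shared. Leaving out 1 section gave 11 to 256, 96 to 699 and 309 to 1827. For the member-by-age term, leaving out 1 section gave 13 to 107, 96 to 323 and 232 to 855. Keeping every gene with 1 UMI gave 73 (P21 vs. adult) and 211 (aged vs. adult), touching members alone 13 (P21 vs. adult), a level of 400 CPM 43 in aged vs. adult, a level of 1000 CPM 342 and surrounded members 195 in aged vs. P21. With spots within 0.3 mm in place of all others, 65 genes were called in P21 vs. adult (12 shared) and 38 in aged vs. adult (27 shared), and 145 genes were over 2-fold higher and 29 lower in members of every section. Reversed were the term of Nr4a2 (0.85) and of Folr1 (1.40) in aged vs. P21 and of Gfap in aged vs. adult (−0.058), all with spots within 0.3 mm, and Htr2c in aged vs. P21, which ran from −0.93 without aged section 2 to 1.57 without aged section 1. The causes were not tested, other than that fewer sections or spots entered where some were left out. Replicate numbers do not pair the sections: deviations of P21 and aged section 1 correlated at −0.03 over 8739 genes, and a replicate block gave 72, 323 and 1547 calls. Leaving out adult section 2 left no adult comparison. Depth limited the adult members most, with 384490 UMIs.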

Other observations

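Other tissue markers in the members also differed between sections. The 4 erythrocyte genes summed to 3147, 1770, 273, 61.4 and 531 CPM in P21 1, P21 2, adult 2, aged 1 and aged 2, and all 4 were called lower in aged vs. P21 by edgeR, with 0 called against the other spots, at an unadjusted p under 0.05 as well, beside 1.31% of all genes called higher and 3.55% lower by that test. DESeq2 did not call the erythrocyte gene Hbb-bs in aged vs. P21 (log2 difference −3.26, adjusted p = 0.143). The 10 dorsal thalamus markers summed to 2821, 2531, 1797, 1773 and 2142 CPM. Of 14 genes of cholesterol synthesis tested, 6 were lower in aged vs. P21 and 0 higher, beside 7.58% of all genes lower, and 1 was called lower against the other spots, beside 3.55% of all genes.

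Pmch, the melanin-concentrating hormone precursor of the lateral hypothalamus, was at 137 and 74.9 CPM in P21 members, 33.8 in the adult and 1.92 and 0 in aged members.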
